A study of Mus musculus with 6 samples.

Results

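The genes described here are Wnt4 and 9 genes whose products receive Wnt signals: the Frizzled receptors Fzd1, Fzd2, Fzd5, Fzd6, Fzd7 and Fzd8, the co-receptors Lrp5 and Lrp6, and Ryk. They were taken by gene symbol from a table of 11417 genes, and all 10 had a row. The table gives poly(A) RNA levels in BC44, HC11 and C57MG, which are established mouse mammary epithelial cell lines, each with 2 replicate libraries. All cells were untreated and grown on plastic. BC44 was kept in RPMI1640 with 10% serum and 5 µg/ml insulin, HC11 likewise but with epidermal growth factor at 10 ng/ml, and C57MG in DMEM, its serum at 10% and its insulin at 10 µg/ml. Cell line and medium therefore cannot be told apart. No genotype is given for any line, and nothing in the labels says whether the 2 libraries of a line came from separate cultures, so p-values measure the spread between these libraries, which may be technical.

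Wnt4 is a secreted, lipid-modified ligand that acts in the mammary gland downstream of progesterone, where it is known for its part in side branching and in signalling between neighbouring epithelial cells. Wnt proteins bind the cysteine-rich outer domain of Frizzled receptors, which cross the membrane like G protein-coupled receptors and pass the signal to Dishevelled. When a Wnt joins a Frizzled to Lrp5 or Lrp6, beta-catenin is stabilised and acts with TCF/LEF factors in the nucleus. Ryk is a Wnt receptor with a catalytically inactive kinase domain, linked mostly to signalling that does not pass through beta-catenin. The series concerns the control of Wnt4, and the question here was which receptors each line expresses that could receive the Wnt4 it makes.

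The RefSeq promoter windows (build GRCm38.p6, 250 bases before to 50 bases after the start) matched 5 of the 10 members by symbol: Wnt4, Fzd1, Fzd5, Fzd7 and Ryk. Those of Wnt4, Fzd1 and Fzd7 are shown because these 3 genes had the largest differences in level that are given below. Capitals mark matches to a TCF/LEF motif (CTTTG followed by AA, AT, TA or TT) and to a CCAAT box (CCAAT), each searched on both strands.
Wnt4 (chr4:137277385-137277684, plus strand): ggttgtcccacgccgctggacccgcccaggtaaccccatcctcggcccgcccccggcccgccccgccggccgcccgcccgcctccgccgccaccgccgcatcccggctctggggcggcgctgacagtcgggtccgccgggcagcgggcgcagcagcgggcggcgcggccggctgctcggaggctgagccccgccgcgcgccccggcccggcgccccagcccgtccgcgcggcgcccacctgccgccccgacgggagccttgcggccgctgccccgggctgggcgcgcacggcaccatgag
Fzd1 (chr5:4758167-4758466, minus strand): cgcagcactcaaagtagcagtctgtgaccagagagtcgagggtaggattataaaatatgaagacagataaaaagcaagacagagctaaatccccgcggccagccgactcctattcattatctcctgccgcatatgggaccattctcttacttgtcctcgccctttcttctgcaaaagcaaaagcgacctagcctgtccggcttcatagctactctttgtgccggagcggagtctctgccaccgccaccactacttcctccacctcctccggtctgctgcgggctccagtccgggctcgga
Fzd7 (chr1:59481897-59482196, plus strand): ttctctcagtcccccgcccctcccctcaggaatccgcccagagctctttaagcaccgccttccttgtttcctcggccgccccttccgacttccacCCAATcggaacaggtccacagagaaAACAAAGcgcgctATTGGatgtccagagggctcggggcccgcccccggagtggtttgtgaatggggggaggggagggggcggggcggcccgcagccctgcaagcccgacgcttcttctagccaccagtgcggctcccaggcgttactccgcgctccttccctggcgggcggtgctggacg
The Wnt4 window was 84.3% G and C, more than 99.8% of the 32851 promoter windows, whose median was 52.7%. Fzd1 was at 54.0% and Fzd7 at 66.7%. In Fzd7 a TCF/LEF match lay at -130 to -124 relative to the start, between a CCAAT match at -155 to -151 and another at -117 to -113. Of all windows 16.9% held a TCF/LEF match and 37.4% a CCAAT match. A GRHL motif (AACCNGTT, both strands), found in 2.09% of all windows, was in none of the 5 members' windows. These are matches of letters and say nothing about binding.

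Values are RPKM, read numbers scaled to the length of the gene and to the size of the library, so levels of different genes are compared per length. The lengths used are not given, and a comparison between genes rests on them. Differences are given as ratios of mean RPKM and as differences of log2(RPKM + 1), which are smaller than the log2 ratio for low genes. They were tested with limma across 10759 genes, with Benjamini-Hochberg adjusted p-values and a threshold of 0.05. Estimated depth was 14110000 to 18360000 reads per library. On that estimate the least sampled member, Fzd8, had 23 to 154 reads per library, Fzd5 had 54 to 324, and each other member had at least 115. Of the 50-base windows of their annotated transcripts, the 6 Frizzled members and Ryk shared 0 with any other gene, while Wnt4 shared 158 of 4107, Lrp6 99 of 13713 and Lrp5 5 of 9823. An antisense gene overlaps the exons of Fzd5 by 1233 bases and another those of Fzd6 by 152 bases, and whether the counting used the strand is not stated.

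Markers of cell type differed between the lines, all labelled mammary epithelial. Of 8 epithelial markers analysed, 8 were at 1 RPKM or more in both HC11 libraries, 5 in both BC44 libraries and 0 in both C57MG libraries, where their summed level was 0.584 to 3.01 RPKM against 287 to 336 in BC44 and 661 to 714 in HC11. Krt18 was at 0 in both BC44 libraries and Krt7 at 0 in both C57MG libraries, while Epcam was at 0.949 and 0 RPKM in C57MG. All 9 mesenchymal markers analysed were at 1 RPKM or more in both C57MG libraries, against 4 in both BC44 libraries and 4 in both HC11 libraries. Their summed level was 3352 to 3694 RPKM in C57MG, 253 to 296 in BC44 and 211 to 296 in HC11. Most of the C57MG sum was Vim, at 2708 and 2282 RPKM. Most of the other sums was Fn1, at 232 and 235 RPKM in BC44 and 180 and 261 in HC11. Of 6 basal mammary markers analysed, 5 were at 1 RPKM or more in both libraries of each line, C57MG included, with a summed level of 306 to 382 RPKM there, 2921 to 3705 in HC11 and 6429 to 6689 in BC44. In C57MG that sum was made up mostly of Acta2, a smooth muscle actin that myofibroblasts also express, at 104.95 and 136.0 RPKM, of the integrin Itga6 at 112.6 and 86.8, and of Krt14, while the keratin Krt5 was at 16.0 and 0.148. There the basal keratin Krt14 was at 118.0 and 64.8 RPKM, Krt17 at 24.7 and 11.4, and the basal transcription factor Trp63 at 5.86 and 6.98. Epcam, Krt5, Krt14 and Krt17 were all higher in C57MG replicate 1 than in replicate 2. In replicate 1, genes private to BC44 (defined below) stood at a median of 0.729% of their BC44 level, and in replicate 2 at 0. Krt5, Krt14 and Krt17 were at 1820 RPKM or more in BC44. The part of RNA from BC44 in the replicate 1 values was not tested. In replicate 2 Krt14, Krt17 and Trp63 were still at 64.8, 11.4 and 6.98 RPKM, so the lists gave no single answer on the C57MG label. Of 5 luminal markers analysed 3 were at 1 RPKM or more in both HC11 libraries, 1 in both C57MG libraries and 0 in both BC44 libraries. Their summed levels were 239 to 249 RPKM in HC11, 8.18 to 9.81 in C57MG and 0.107 to 0.179 in BC44. The HC11 sum was mostly Krt8 (144.4 and 148.0) and Krt18 (88.5 and 94.1), which are also on the epithelial list. Gata3 was higher in C57MG (7.32 and 8.43 RPKM) than in HC11 (5.36 and 6.37), and so was Esr1 (0.551 and 0.831 against 0.213 and 0.215). Prlr was at 0.102 and 0.114 RPKM in HC11 and at 0 in C57MG. The epithelial, basal and luminal sums did not overlap between any of the lines, and the mesenchymal sums overlapped only between BC44 and HC11. The part of cell type in the differences between lines given below, BC44 against HC11 included, was not tested. In bulk RNA, fewer cells of a type and less RNA per cell cannot be told apart.

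Each line had a different balance of ligand, Frizzled and co-receptor RNA. BC44 had the highest Wnt4 and the highest summed Frizzled level, HC11 had the lowest Wnt4 with an intermediate Frizzled sum, and C57MG had intermediate Wnt4, the lowest Frizzled sum and the highest Lrp5 and Lrp6. Between BC44 and HC11, 7 of the 10 members passed the test, 5 with more RNA in BC44 and 2 with more in HC11. Of all tested genes 47.7% passed, 24.7% and 23.0% in these directions. Between BC44 and C57MG 9 of 10 passed, 5 higher in BC44 and 4 in C57MG, against 71.7% of all genes (37.5% and 34.1%). Between HC11 and C57MG 8 of 10 passed, 3 higher in HC11 and 5 in C57MG, against 70.5% (37.4% and 33.2%). The libraries of the lines compared did not overlap for 8, 9 and 9 members, against 73.0%, 87.9% and 86.2% of all genes. With so many genes differing between the lines, these counts are not particular to the members. The median difference of the 10 members was 0.40, 0.29 and -0.33 on the log2 scale in the same order, and that of all genes 0.02, 0.04 and 0.03. Fzd8 reached 1 RPKM in only 2 libraries, 1 each of BC44 and HC11, and Fzd5 in the 4 libraries of HC11 and C57MG, so both entered the test through libraries in which they were high. The 8 other members were at 1 RPKM or more in all 6 libraries.

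**Figure D1:**
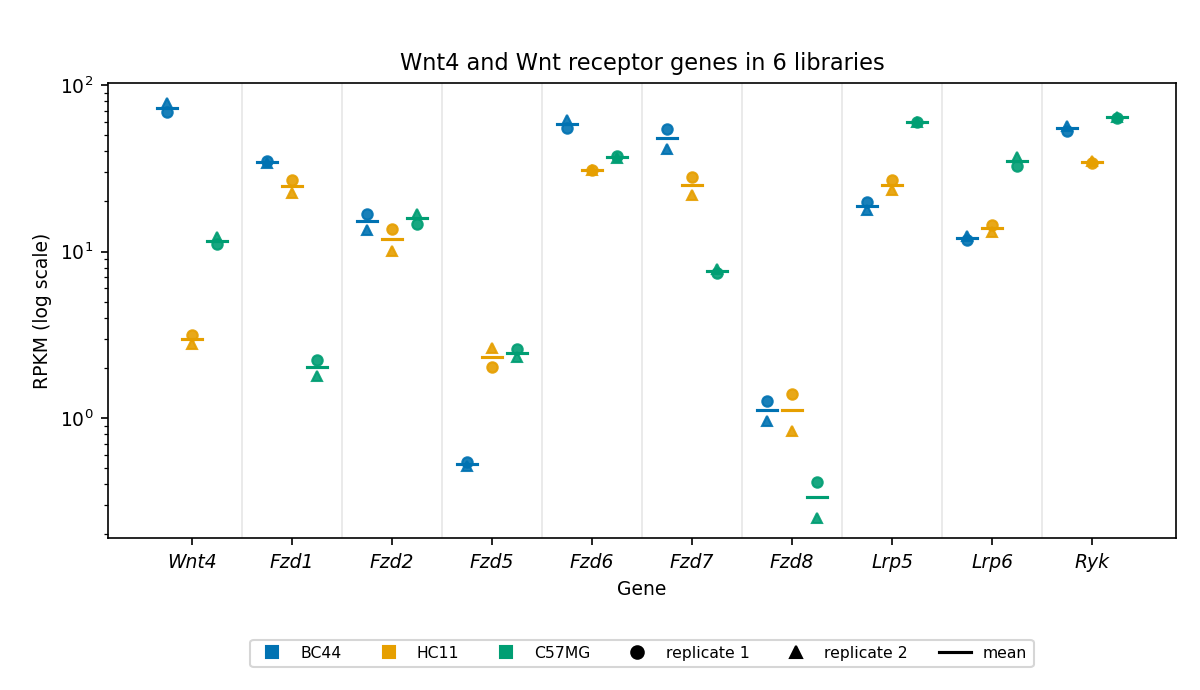
RPKM on a log scale of Wnt4 and 9 receptor genes, with circles for replicate 1, triangles for replicate 2 and bars for the mean of each line (BC44 blue, HC11 orange, C57MG green). Wnt4 spans 2.80 to 77.6 RPKM over the 6 libraries, Fzd1 and Fzd7 are lowest in C57MG, and Lrp5 and Lrp6 are highest there.

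Wnt4 (ENSMUSG00000036856) was at 69.2 and 77.6 RPKM in BC44 replicates 1 and 2, at 3.17 and 2.80 in HC11, with 11.03 and 12.2 in C57MG. The libraries of the 3 lines did not overlap, in the order BC44, C57MG, HC11. In BC44 Wnt4 lay above every receptor member, and 92.8% of listed genes were at or below its level. In C57MG 5 receptor members were above it, and in HC11 7 were, with 56.2% and 25.4% of listed genes at or below it. All 3 differences passed, at 4.22 (SE 0.10, adjusted p = 5.71e-07) for BC44 minus HC11, 2.56 (SE 0.10, 5.91e-07) for BC44 minus C57MG and -1.66 (SE 0.10, 5.99e-06) for HC11 minus C57MG.

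Wnt4 was also the leading ligand in BC44 but not in the other lines. Across the 8 Wnt ligand genes analysed, it held 67.7% and 67.4% of the summed RPKM in BC44, 26.9% and 27.6% in C57MG, and only 12.1% and 9.68% in HC11. In C57MG the leading ligand was Wnt5a, with 54.7% and 56.5%. In HC11 Wnt10a led in replicate 1 with 40.4% and Wnt7b in replicate 2 with 34.3%, so the leading ligand of HC11 differed between its libraries. These data hold no measure of which ligand binds which receptor.

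Fzd1, one of the closely related group Fzd1, Fzd2 and Fzd7, was high in BC44 and HC11 and low in C57MG. It was at 35.0 and 33.8 RPKM in BC44, 26.9 and 22.6 in HC11, with 2.23 and 1.79 in C57MG. Both C57MG libraries lay far below the other 4, and mean RPKM was 17.1-fold higher in BC44 and 12.3-fold higher in HC11 than in C57MG. These were the largest differences of any receptor member against C57MG, at 3.56 (SE 0.12, limma adjusted p = 3.05e-07) and 3.09 (SE 0.12, 5.92e-07). Between BC44 and HC11 the ratio was 1.39 and the difference 0.47 (SE 0.12, adjusted p = 0.0147). That smaller difference did not pass without BC44 replicate 1 (0.0852), BC44 replicate 2 (0.0632) or HC11 replicate 2 (0.0775).

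Fzd7 followed the same order of lines. Its level was 54.7 and 41.5 RPKM in BC44, 28.1 and 21.9 in HC11, with 7.46 and 7.89 in C57MG. No lines overlapped, although the BC44 and HC11 replicates were spread. Fzd7 was 6.27-fold higher in BC44 than in C57MG (2.49, SE 0.16, adjusted p = 5.42e-06), 3.26-fold higher in HC11 than in C57MG (1.57, SE 0.16, 7.16e-05) and 1.92-fold higher in BC44 than in HC11 (0.91, SE 0.16, 0.00256).

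Fzd2, the third of the group, passed in no contrast. It was at 16.9 and 13.5 RPKM in BC44, 13.7 and 10.1 in HC11, with 14.7 and 16.9 in C57MG. BC44 overlapped with both other lines, while the HC11 libraries lay below those of C57MG. The limma differences were 0.34 (SE 0.16, adjusted p = 0.131) for BC44 minus HC11, -0.06 (SE 0.16, 0.763) for BC44 minus C57MG and -0.39 (SE 0.16, 0.0618) for HC11 minus C57MG. Without HC11 replicate 1 it passed in BC44 minus HC11 (0.54, 0.0423) and in HC11 minus C57MG (-0.60, 0.0203). As a share of Frizzled RNA, Fzd2 went from 8.67% to 12.1% in the BC44 and HC11 libraries to 21.7% and 24.9% in C57MG, where Fzd1 and Fzd7 were low.

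Fzd6, a Frizzled known mostly for planar cell polarity and for restraint of beta-catenin signalling, was the most abundant Frizzled by mean RPKM in all 3 lines. Its level was 54.9 and 62.0 RPKM in BC44, 30.9 and 30.9 in HC11, with 37.7 and 36.6 in C57MG. The lines did not overlap, with HC11 lowest and BC44 highest. BC44 was 1.89-fold above HC11 (0.90, SE 0.08, limma adjusted p = 0.000133) and 1.57-fold above C57MG (0.64, SE 0.08, 0.000281). C57MG was 1.20-fold above HC11, a difference of -0.26 for HC11 minus C57MG (SE 0.08, 0.026) that did not pass when any 1 of the 4 libraries of these lines was left out (0.0665 to 0.123).

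Fzd5 and Fzd8 form another related pair and were the lowest members in BC44 and HC11, while in C57MG Fzd1 lay between them. Fzd5 was at 0.544 and 0.514 RPKM in BC44, 2.01 and 2.63 in HC11, with 2.59 and 2.33 in C57MG. Both BC44 libraries were below the other 4, and HC11 and C57MG overlapped. Mean Fzd5 was 4.38-fold higher in HC11 and 4.64-fold higher in C57MG than in BC44, with differences of -1.11 (SE 0.12, limma adjusted p = 0.000268) and -1.18 (SE 0.12, 6.95e-05) for BC44 minus each. With a pseudocount of 0.1 these were -1.93 and -2.02. HC11 minus C57MG was -0.06 (SE 0.12, 0.65).

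Fzd8 was at 1.27 and 0.959 RPKM in BC44, 1.40 and 0.834 in HC11, with 0.413 and 0.252 in C57MG. C57MG was below both other lines, and the HC11 libraries enclosed those of BC44. The ratio was 3.35 for BC44 over C57MG (0.66, SE 0.15, limma adjusted p = 0.00539) and 3.36 for HC11 over C57MG (0.66, SE 0.15, 0.00589), and with a pseudocount of 0.1 the differences were 1.502 and 1.478. Between BC44 and HC11 it was 0.01 (SE 0.15, 0.977). The C57MG values rest on an estimated 45 and 23 reads.

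**Figure D2:**
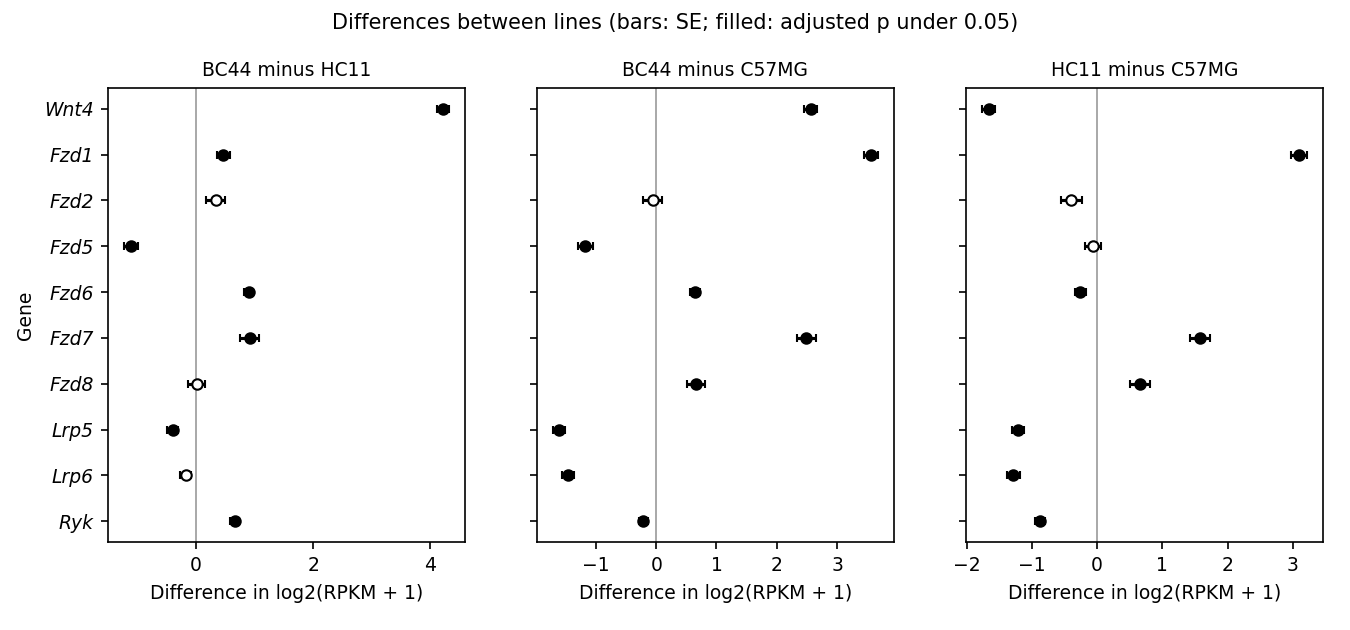
Difference in log2(RPKM + 1) of each member in the 3 contrasts, with bars for the standard error and filled points for a limma adjusted p under 0.05. Fzd1 and Fzd7 lie on the side of BC44 and HC11 against C57MG, Lrp5 and Lrp6 on the side of C57MG, and Fzd2 is open in all 3 panels.

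Lrp5 and Lrp6, the co-receptors of the beta-catenin branch, were both highest in C57MG. Lrp5 was at 19.9 and 17.8 RPKM in BC44, 27.1 and 23.5 in HC11, with 59.8 and 59.7 in C57MG. The 3 lines did not overlap. It was 3.17-fold higher in C57MG than in BC44 (-1.61 for BC44 minus C57MG, SE 0.10, limma adjusted p = 4.13e-06) and 2.37-fold higher than in HC11 (-1.21 for HC11 minus C57MG, SE 0.10, 2.16e-05). HC11 was 1.34-fold above BC44 (-0.40 for BC44 minus HC11, SE 0.10, 0.0117), which did not pass without BC44 replicate 2 (0.072) or HC11 replicate 1 (0.0517).

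Lrp6 was at 11.7 and 12.4 RPKM in BC44, 14.4 and 13.2 in HC11, with 32.9 and 37.2 in C57MG. It was 2.91-fold higher in C57MG than in BC44 (-1.46, SE 0.10, limma adjusted p = 7.09e-06) and 2.54-fold higher than in HC11 (-1.28, SE 0.10, 1.69e-05). The BC44 and HC11 libraries did not overlap, but their difference of -0.18 (SE 0.10, 0.165) did not pass. Of the 45 pairs of members, Lrp5 and Lrp6 had the closest profiles over the 6 libraries, at a distance of 0.31 between their centred log2(RPKM + 1) values. Lrp5 was above Lrp6 in every library, by 1.44 to 1.87 times. This likeness is a description of 6 libraries from 3 lines.

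Ryk was abundant in all lines and was the first or close to the first receptor member in each. It was at 52.9 and 57.2 RPKM in BC44, 34.0 and 35.0 in HC11, with 63.3 and 64.6 in C57MG. The lines did not overlap, with HC11 lowest. Ryk was 1.59-fold higher in BC44 than in HC11 (0.66, SE 0.08, limma adjusted p = 0.00038) and 1.85-fold higher in C57MG than in HC11 (-0.87 for HC11 minus C57MG, SE 0.08, 3.45e-05). BC44 minus C57MG was -0.21 (SE 0.08, 0.035), and this did not pass without BC44 replicate 1 (0.15), C57MG replicate 1 (0.107) or C57MG replicate 2 (0.151), or in limma without trend (0.0598).

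Ordered by level within each line, the receptor members formed different sets. In BC44 the order was Fzd6, Ryk, Fzd7, Fzd1, Lrp5, Fzd2, Lrp6, Fzd8 and Fzd5, from 58.5 to 0.529 RPKM, and the replicate ranges overlapped between Fzd6 and Ryk and between Ryk and Fzd7. In HC11 it was Ryk, Fzd6, Lrp5, Fzd7, Fzd1, Lrp6, Fzd2, Fzd5 and Fzd8, from 34.5 to 1.12 RPKM. There Lrp5, Fzd7 and Fzd1 overlapped in turn, as did Lrp6 and Fzd2. In C57MG it was Ryk, Lrp5, Fzd6, Lrp6, Fzd2, Fzd7, Fzd5, Fzd1 and Fzd8, from 64.0 to 0.333 RPKM, with an overlap of Fzd6 and Lrp6 only. Fzd1 was thus the fourth receptor in BC44, the fifth in HC11 and the eighth in C57MG.

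The sum of the 9 Frizzled genes analysed (the 6 members with Fzd3, Fzd4 and Fzd9) was 166.8 and 156.0 RPKM in BC44, 113.4 and 98.2 in HC11, with 68.0 and 67.9 in C57MG. The lines did not overlap. Fzd6 made up 32.9% and 39.7% of the sum in BC44, 27.2% and 31.5% in HC11, with 55.4% and 53.9% in C57MG. Fzd1, Fzd2 and Fzd7 together made up 63.9% and 56.96% in BC44, 60.6% and 55.6% in HC11, with 35.9% and 39.1% in C57MG. The summed level of Lrp5 and Lrp6 ran the other way, at 31.6 and 30.2 RPKM in BC44, 41.5 and 36.7 in HC11, with 92.7 and 96.9 in C57MG. Per Frizzled RPKM there were 0.189 and 0.194 RPKM of Lrp5 and Lrp6 in BC44, 0.366 and 0.373 in HC11, with 1.36 and 1.43 in C57MG. Wnt4 per Frizzled RPKM was 0.415 and 0.497 in BC44, 0.162 and 0.179 in C57MG, with 0.0280 and 0.0285 in HC11. Sums over members were not tested.

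**Figure D3:**
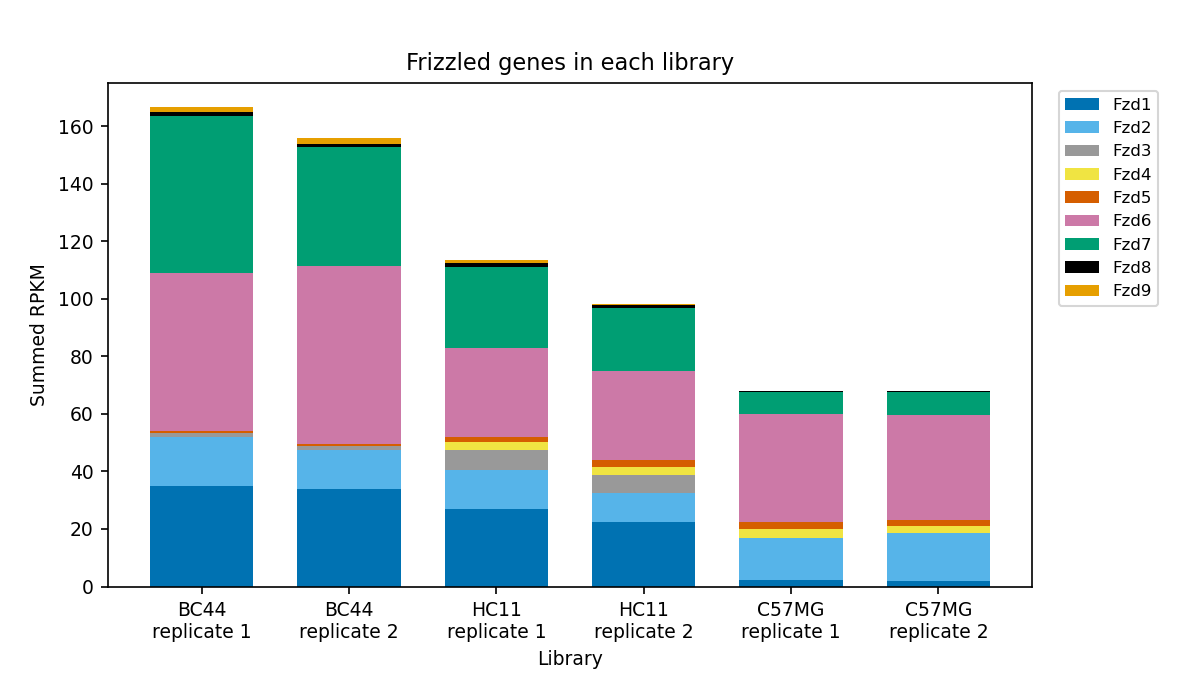
Stacked bars of the RPKM of 9 Frizzled genes in each of the 6 libraries. The bars reach 156.0 to 166.8 RPKM in BC44, 98.2 to 113.4 in HC11 and 67.9 to 68.0 in C57MG, where the Fzd1 segment is small and Fzd6 takes more of the bar than all others together.

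The 3 Frizzled genes outside the set added differences between lines at low level. Fzd3, which like Fzd6 is known for planar polarity, was at 6.76 and 6.19 RPKM in HC11, with 1.38 and 1.56 in BC44 and was listed at 0 in both C57MG libraries. Fzd4, the Norrin receptor, was at 2.76 and 2.67 RPKM in HC11, 2.90 and 2.20 in C57MG, and 0.167 and 0.047 in BC44. Fzd9 was at 1.97 and 2.10 RPKM in BC44, 0.892 and 0.365 in HC11, with 0.024 and 0 in C57MG. All but the comparison of Fzd4 between HC11 and C57MG passed the limma test. Each gene entered that test only through the lines in which it was high. These were BC44 and HC11 for Fzd3, HC11 and C57MG for Fzd4, and BC44 for Fzd9. The 6 members made up 97.9% and 97.6% of Frizzled RNA in BC44, 95.7% and 96.8% in C57MG, with 90.8% and 90.6% in HC11.

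Low levels in a line were set beside a measure of RNA from the other lines. Genes private to a line were those with at least 20 RPKM there, at most 2% of that level in the third line and at most 5% in the other replicate of the library examined. In HC11, 18 genes private to BC44 stood at a median of 2.38% and 1.21% of their level in BC44 (replicates 1 and 2). For Wnt4 those shares would be 1.75 and 0.891 RPKM of the 3.17 and 2.80 RPKM measured there. The genes did not share 1 ratio, since 66.7% and 44.4% of them lay within 2-fold of the median. Igfbp2, at a mean of 125.9 RPKM in BC44, stood at only 0.0461% and 0.0897% of that in the HC11 libraries, and at that share Wnt4 would hold 0.0338 and 0.0659 RPKM. The part of RNA from BC44 in the Wnt4 level of HC11 was otherwise not tested. In C57MG the 11 genes private to BC44 stood at a median of 0.729% in replicate 1 and at 0 in replicate 2, which in replicate 1 would be 0.535 RPKM of Wnt4, 0.251 of Fzd1 and 0.350 of Fzd7, below the levels measured. In replicate 1, 90.9% of these genes lay within 2-fold of the median. In BC44 73 and 72 genes private to C57MG stood at 0.666% and 2.02%, which for Fzd5 would be 0.0164 and 0.0495 RPKM of 0.544 and 0.514. Of these genes 64.4% and 97.2% lay within 2-fold of the median. The part of such RNA in other low values, such as Fzd4 at 0.047 RPKM in BC44 replicate 2, was not tested.

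A list of 108 further Wnt pathway genes was set up by role, of which 69 were analysed and 64 tested. Between BC44 and HC11 44 passed (23 with more RNA in BC44, 21 with more in HC11), between BC44 and C57MG 46 (28 and 18) and between HC11 and C57MG 45 (23 and 22). The share of the tested list that passed was 68.8%, 71.9% and 70.3%, against 47.7%, 71.7% and 70.5% of all genes. Of the genes named below, Wnt5a, Adgra2, Reck and Tle2 reached 1 RPKM in C57MG alone, Wnt10a in HC11 alone and Celsr1 in BC44 alone, so each entered the test through the line where it was high. Sfrp1, Nkd2, Celsr2 and Prickle3 were under 1 RPKM in both C57MG libraries, and Lgr6 in both HC11 libraries. They too entered only through the lines where they were higher. Median differences of the list were 0.07, 0.12 and 0.03 on the log2 scale. Testing only genes that averaged 5 RPKM or more left 42 of the list tested, of which 29, 30 and 29 passed. The share of all genes that passed under this filter is not given here.

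The role of Wnt acylation and secretion held 3 genes. Between BC44 and HC11 3 passed, between BC44 and C57MG 3 and between HC11 and C57MG 2. These are 100%, 100% and 66.7%, against 47.7%, 71.7% and 70.5% of all genes. Wls, the carrier that takes Wnt proteins to the cell surface, was at 39.5 and 37.9 RPKM in BC44, 25.4 and 24.7 in HC11, with 67.4 and 67.6 in C57MG, and passed in all 3. Porcn, the enzyme that attaches the lipid, was highest in HC11 at 6.03 and 4.16 RPKM, against 1.48 and 1.43 in BC44, with 2.80 and 2.08 in C57MG. It passed in all 3, although BC44 against C57MG (adjusted p = 0.0368) did not pass without BC44 replicate 1, BC44 replicate 2 or C57MG replicate 1. Notum, a secreted enzyme that removes the lipid, was lower in BC44 (4.06 and 3.14 RPKM) than in HC11 (7.60 and 6.84) and C57MG (6.18 and 6.01), where both differences passed.

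Among the ligands, Wnt5a was at 22.4 and 24.9 RPKM in C57MG and at most 0.374 in the other 4 libraries, while Wnt10a reached 10.6 and 7.41 RPKM in HC11 and no more than 0.083 elsewhere. Wnt7b was at 26.3 and 27.8 RPKM in BC44, 6.15 and 9.90 in HC11, with 3.52 and 3.09 in C57MG. Adgra2 and Reck, which together form a co-receptor for Wnt7 ligands, were highest in C57MG, the line with the least Wnt7b. Adgra2 was at 8.05 and 9.08 RPKM in C57MG, 0.252 and 0.822 in HC11, with 0.095 and 0.089 in BC44. Reck was at 1.81 and 1.75 RPKM in C57MG against 0.336 to 0.701 in the other 4 libraries. Both passed in both contrasts with C57MG, through which alone they entered the test, since both were under 1 RPKM in all BC44 and HC11 libraries.

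The other receptors and surface proteins gave a mixed picture. Ptk7, a Wnt co-receptor of the planar polarity branch and the only tested gene of its role, was at 47.2 and 39.4 RPKM in BC44, 41.0 and 31.3 in HC11, with 39.6 and 39.8 in C57MG and passed in no contrast. The glypican gene Gpc4 was at 33.3 and 30.2 RPKM in BC44, with 30.7 and 32.3 in C57MG, and lower in HC11 at 13.99 and 15.9. Lgr4, an R-spondin receptor that protects Frizzled proteins from removal, was at 69.5 and 69.2 RPKM in BC44, 24.2 and 24.9 in C57MG, with 19.5 and 16.8 in HC11, an order of lines that Wnt4 also had, and passed in each of the 3 contrasts. Lgr6 was low in HC11 (0.538 and 0.495 RPKM) against 2.10 and 3.96 in BC44, with 3.77 and 4.11 in C57MG. Znrf3, a ubiquitin ligase that removes Frizzled proteins from the membrane, stayed between 4.58 and 6.33 RPKM in all libraries. It passed only between HC11 and C57MG (-0.32, adjusted p = 0.0239), and not without C57MG replicate 1, C57MG replicate 2 or HC11 replicate 1.

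Antagonists held the largest difference among the pathway genes named. Sostdc1, which binds Lrp6 and also blocks BMP ligands, was at 97.1 and 87.2 RPKM in BC44, 2.80 and 0.518 in HC11, with 1.01 and 0 in C57MG. Its difference was 6.04 for BC44 minus C57MG and 5.28 for BC44 minus HC11, and both passed. Sfrp1, a decoy with a Frizzled-like domain, was at 34.4 and 27.4 RPKM in HC11, 9.76 and 6.25 in BC44, with 0.051 and 0.015 in C57MG, and passed in each of the 3 contrasts. Kremen1, a receptor for Dickkopf proteins that takes Lrp6 off the surface, was lower in BC44 (5.43 and 4.83 RPKM) than in HC11 (10.3 and 7.29) and C57MG (8.77 and 8.73). For Kremen1 BC44 against HC11 did not pass without BC44 replicate 2 (adjusted p = 0.072).

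Of the 18 cytoplasmic relay genes 11, 12 and 9 passed between BC44 and HC11, BC44 and C57MG, and HC11 and C57MG. These are 61.1%, 66.7% and 50%, against 47.7%, 71.7% and 70.5% of all genes. The largest differences were in Csnk1e (1.26 for HC11 minus C57MG), Amer1 (1.01 for BC44 minus C57MG) and Csnk1a1 (0.87 for HC11 minus C57MG). The casein kinases Csnk1e and Csnk1a1 phosphorylate pathway components, and Amer1 is a scaffold of the complex that degrades beta-catenin. Among nuclear mediators Tcf7 was at 16.0 and 13.2 RPKM in C57MG, 5.50 and 3.35 in HC11, with 1.69 and 1.90 in BC44, the same order of lines as Lrp5 and Lrp6. Tle2, a corepressor, was at 2.30 and 2.41 RPKM in C57MG and at most 0.415 elsewhere. Bcl9l, a co-activator of beta-catenin, was at 62.8 and 62.2 RPKM in BC44, 29.1 and 31.3 in C57MG, with 24.96 and 17.4 in HC11.

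Of the 6 common target genes 3 were analysed. Nkd2, an inhibitor that binds Dishevelled, was at 75.7 and 59.5 RPKM in BC44, 28.1 and 16.7 in HC11, with 0.468 and 0.014 in C57MG and passed in each of the 3 contrasts, although BC44 against HC11 did not with a pseudocount of 0.1 (1.63, adjusted p = 0.0958). Myc was lower in C57MG (37.5 and 28.0 RPKM) than in BC44 (65.4 and 75.8) and HC11 (70.5 and 86.4). Ccnd1 was lower in BC44 (157.8 and 157.8 RPKM) than in HC11 (216.5 and 220.0) and C57MG (225.7 and 195.7). These 3 genes did not share an order of lines.

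Of 7 planar polarity genes tested between BC44 and C57MG, 5 passed with more RNA in BC44 and 0 with more in C57MG, against 37.5% and 34.1% of all genes. In both directions together 71.4% passed, against 71.7% of all genes. Celsr1, Celsr2 and Prickle3, counted in BC44, were under 1 RPKM in C57MG and entered the test through other lines. Prickle2 went the other way, at 0.583 and 0.563 RPKM in C57MG against 0.008 and 0.013 in BC44, and was too low to be tested. Between BC44 and HC11 4 had more in BC44 and 1 in HC11 (24.7% and 23.0% of all genes), and between HC11 and C57MG 4 had more in HC11 and 3 in C57MG (37.4% and 33.2%). Celsr1 and Celsr2, seven-pass cadherins, were at 13.9 and 13.5 and at 18.2 and 13.7 RPKM in BC44. In C57MG Celsr1 was at 0.215 and 0.158 and Celsr2 at 0.096 and 0 RPKM, and in HC11 Celsr1 was at 0.721 and 0.594 and Celsr2 at 6.56 and 4.001. Prickle1 was highest in HC11, at 16.4 and 15.1 RPKM against 4.41 and 4.58 in BC44, with 2.61 and 3.37 in C57MG. Its difference for BC44 minus C57MG was small, at 0.47 (limma adjusted p = 0.00989), and ranged from 0.33 to 0.60 with single libraries left out.

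**Figure D4:**
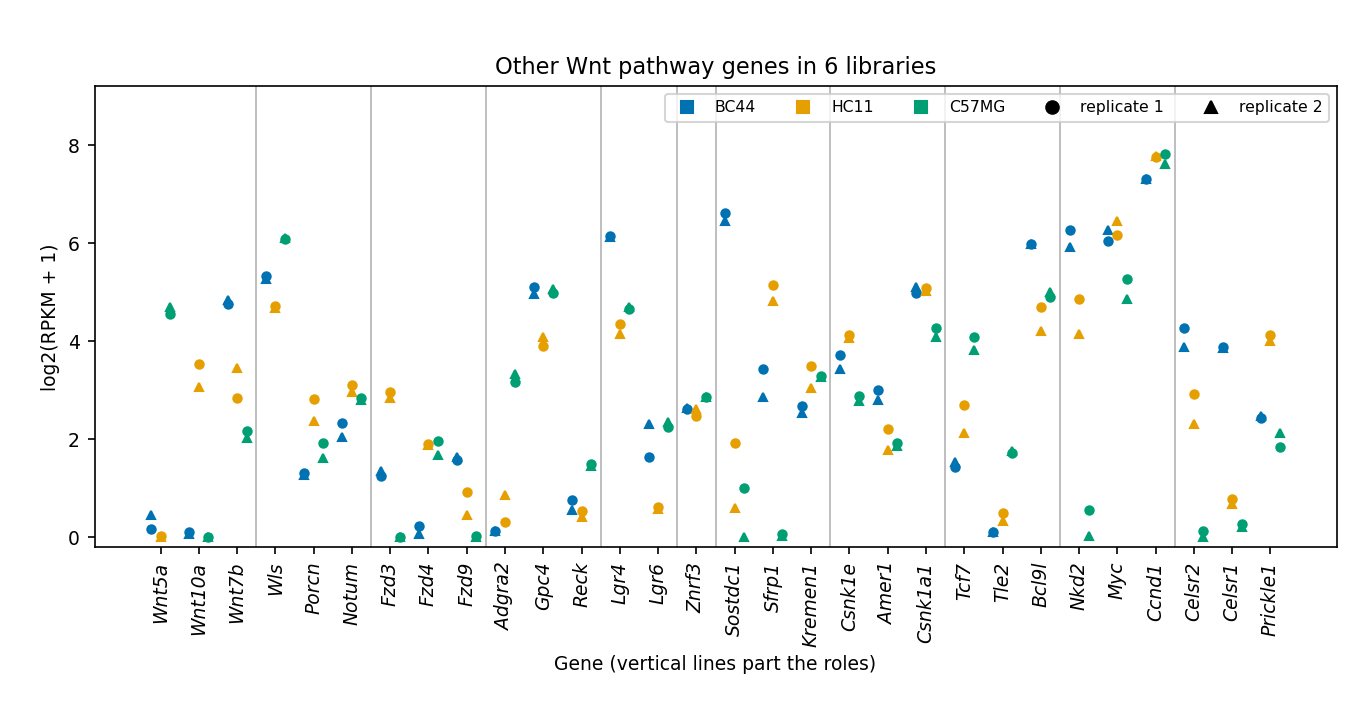
Levels of 30 further Wnt pathway genes as log2(RPKM + 1), with circles for replicate 1 and triangles for replicate 2 of BC44 (blue), HC11 (orange) and C57MG (green), and vertical lines between roles. Sostdc1, Nkd2, Celsr1 and Celsr2 are highest in BC44, Sfrp1 and Prickle1 in HC11, and Wnt5a, Adgra2 and Tcf7 in C57MG.

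The genes whose profile lay nearest to that of Wnt4 were found by distance between centred log2(RPKM + 1) values over the 6 libraries, among 10749 tested genes that are not members. The nearest were Rgcc (distance 0.82), Fgfr2 (0.95), Dlk2 (1.37), Cbs (1.43) and Aff3 (1.48). Fgfr2, a fibroblast growth factor receptor, was at 34.6 and 37.2 RPKM in BC44, 3.07 and 3.30 in C57MG, with 1.79 and 1.27 in HC11. Rgcc was at 21.4 and 18.4, 2.29 and 1.91, and 0.469 and 0.684 RPKM in the same order. Every receptor member had a nearer neighbour, between 0.07 for Fzd6 with Prkci and 0.20 for Fzd1 with Phyh. The other nearest genes were Dnmt3a for Fzd2, Slc25a37 for Fzd5, Hddc3 for Fzd7, Lztr1 for Fzd8, Tle2 for Lrp5, Hexim2 for Lrp6 and Immp1l for Ryk. A distance of this kind is smaller for genes that change little. It also rests on the added 1 RPKM, so a low gene can lie near a higher one without a like ratio. Tle2 was at 0.077 and 0.074 RPKM in BC44, with 2.30 and 2.41 in C57MG. Lrp5, its match, was at 19.9 and 17.8 in BC44, with 59.8 and 59.7 in C57MG.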

How the data were processed

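Poly(A) RNA of BC44, HC11 and C57MG was made into directional libraries from 1 µg of RNA, harvested 2 days after plating, per the labels' protocols. The deposited table holds RPKM computed by the authors, 1 value per gene and library. STAR and build mm9 are named in the submitters' processing notes, while the counter, annotation and gene lengths are not given in the sources used here. GENCODE M21 and RefSeq coordinates are on GRCm38 and were used only for lengths, overlaps, shared windows and promoter sequences.

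Groups and replicates come from the sample titles. Genes with at least 1 RPKM in at least 2 libraries (10759 of 11417) entered the test on the log2(RPKM + 1) scale, for which limma 3.58.1 was run under R 4.3.3 (eBayes with trend) with all 6 libraries in the model, two-sided, and p-values adjusted within each contrast. An exact permutation test of 2 against 2 cannot go below 0.33 and was not used.

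Depth was estimated from low values, which fall on steps of 1 read when multiplied by exonic length. Between 78.6% and 82.3% of the values used lay within 0.15 reads of a whole number, against 30.0% by chance. The length-weighted RPKM came to 128.7% to 136.0% of the largest possible sum, so the lengths differ for some genes and read numbers are estimates that cover counting error only.

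The members, gene lists and tests were chosen with earlier results of these data known. Named were all members, up to 3 pathway genes per role with the largest passing difference and no overlap between the lines, the 5 genes nearest to Wnt4 and the 1 nearest to each receptor. Ptk7, Prickle2, Prickle3 and Igfbp2 were named after their values were seen. So were the markers Epcam, Krt5, Krt7, Krt8, Krt14, Krt17, Krt18, Trp63, Acta2, Itga6, Gata3, Esr1, Prlr, Vim and Fn1. Pathway genes without a row are not analysed here. Alternatives were another pseudocount, other filters and scalings, other variance settings, fewer libraries and a replicate block. Python 3.11.15, numpy 2.4.6, pandas 2.3.3 and matplotlib 3.10.9 were used.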

Additional observations from a re-analysis of the deposited data

How the results depend on the processing

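Of the 444 values that the alternatives gave for single members, 423 kept their direction and their side of the threshold, 13 no longer passed, 3 newly passed and 5 changed sign. Each change of sign came from leaving out 1 library and concerned a difference that passed in neither fit. Fzd8 in BC44 against HC11 went to -0.099 without BC44 replicate 1 and to -0.19 without HC11 replicate 2 (leave-one-out range -0.19 to 0.20). Fzd2 in BC44 against C57MG went to 0.090 without BC44 replicate 2 and to 0.033 without C57MG replicate 2 (range -0.21 to 0.090), and Fzd5 in HC11 against C57MG to 0.070 without HC11 replicate 1 (range -0.20 to 0.070). Quantile normalization and median-ratio scaling changed no member's direction or call. The number of members called ranged over all alternatives from 5 to 7 in BC44 against HC11 and from 7 to 9 in both other contrasts. Wnt4 passed under every alternative run, with differences of 4.14 to 4.58, 2.48 to 2.65 and -1.92 to -1.59. The share of all genes called under each alternative is not given here, so the counts under the alternatives stand without it. A mean of at least 5 RPKM left Fzd5 and Fzd8 untested and called 6, 7 and 7 of the 8 members still tested. It called 29, 30 and 29 further pathway genes of 42 tested, against 44, 46 and 45 of 64. Leaving out single libraries gave 39 to 43, 33 to 49 and 35 to 41. The summed Frizzled level of C57MG was 68.4 RPKM after median-ratio scaling against 68.0, a shift larger than the small spread of its replicates. In the fit with a replicate block, 7, 9 and 9 members passed against 7, 9 and 8, because Fzd2 passed in HC11 against C57MG (-0.39, adjusted p = 0.0393). The labels give the libraries of different lines only a common number, and the deviations of same-numbered libraries correlated across genes at 0.354, -0.04 and 0.04. With 2 libraries per line, differences near the spread, such as those of Fzd2, are not settled at this depth of replication.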
